A study of Mus musculus with 60 samples.

Results

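The cell-cycle genes described here are 35 genes that animal cells switch on to copy their genome and divide, of 55011 genes in the count table. They were picked by name from the count table, without a threshold on any value, as 11 genes of S phase and 24 genes of the G2 and M phases. The S phase set held Rrm1, Rrm2, Mcm2, Mcm3, Mcm4, Mcm5, Mcm6, Mcm7, Pcna, Tyms and Tk1. The G2/M set held Mki67, Top2a, Ccna2, Ccnb1, Ccnb2, Cdk1, Aurka, Aurkb, Bub1, Bub1b, Kif11, Kif15, Kif20a, Kif22, Kif23, Birc5, Cdc20, Cdca8, Cenpe, Cenpf, Tpx2, Nusap1, Plk1 and Ube2c. All 35 were found.

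The RNA sequencing study profiled brown adipose tissue (BAT), the heat-producing fat between the shoulder blades, and subcutaneous adipose tissue (SAT), in 60 libraries of 19 groups, all from male mice 8 weeks old. For 8 libraries, regulatory T (Treg) cells, the Foxp3-expressing T cells that restrain immune responses, were sorted through a gate for live CD45+ Tcrb+ CD4+ Thy1.1+ cells from untreated B6.Foxp3.Thy1.1 mice, 2 from BAT, 3 from SAT and 3 from spleen. The other 52 libraries came from whole fat, 38 from BAT and 14 from SAT. In Foxp3.DTR mice, cells that express Foxp3 carry the diphtheria toxin receptor (DTR+), so that diphtheria toxin (DT) can remove them. DTR- mice lack the receptor and were given DT too. Each depot and genotype had 4 libraries in the groups called D4 and 3 in those called D3, whose titles also name PBS. The CL experiment held 3 BAT groups of 3 libraries, all given DT, namely DTR- with PBS, DTR- with CL and DTR+ with CL. The labels do not spell out CL, which is read here as CL-316243, a drug that switches on the beta-3 adrenergic receptor of brown fat. Wild-type C57BL/6J mice given isotype or PC61, a CD25 antibody used to deplete or disarm Treg cells, gave 3 BAT libraries each, as did DTR+ mice given DT with an antibody against interferon gamma (IFNg) or with isotype. The last 3 BAT libraries were kept at 4 degrees. Their treatment label reads PBS, their genotype label reads DTR- and their titles say WT. The labels do not say what D3 and D4 stand for, nor that replicates are separate animals, so p-values measure the spread between these libraries, which may be technical.

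A dividing cell first makes deoxynucleotides (ribonucleotide reductase, encoded by Rrm1 and Rrm2; thymidylate synthase, Tyms; thymidine kinase, Tk1) and loads DNA with the ring-shaped MCM helicase, built of the subunits Mcm2 to Mcm7, and the sliding clamp Pcna. It then condenses and separates its chromosomes with topoisomerase (Top2a), cyclins A and B with their kinase Cdk1, the Aurora and Polo kinases, the spindle checkpoint (Bub1, Bub1b), kinesin motors (Kif genes) and the anaphase-promoting complex with its partners Cdc20 and Ube2c. S phase genes are known as targets of E2F factors, which Rb-family proteins hold in check. G2/M genes are known as targets of the DREAM and MYB-FOXM1 complexes, which bind a CHR element (TTTGAA), often near CCAAT boxes bound by NF-Y.

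The start regions of the members were searched for these elements. RefSeq windows of 300 bases (250 before and 50 after the gene start, GRCm38.p6, the assembly also called mm10) were found for 30 of the 35 members, in 31 windows because Mcm7 has 2. Each was searched on both strands for TTTGAA, for TTTAAA, for CCAAT and for 4 E2F-type words (TTTCCCGC, TTTGGCGC, TTTCGCGC and TTTGCCGC), where overlapping matches were all kept. TTTGAA was present in 15 of 20 G2/M windows (75%) and 1 of 11 S phase windows (9.09%), beside 17.9% of all 32851 windows. CCAAT was present in 17 of 20 G2/M windows (85%) and 9 of 11 S phase windows (81.8%), beside 37.4% of all. Both words stood together in 14 of 20 G2/M windows (70%) and 6.95% of all windows. The E2F-type words were found in 4 of 11 S phase windows (36.4%), 2 of 20 G2/M windows (10%) and 2.26% of all. TTTAAA was found in 6 of 20 G2/M windows, 3 of 11 S phase windows and 13.2% of all. A match describes letters in this window and is not a bound site.

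The 4 G2/M members and 2 MCM subunits on which the results turn are printed as the 250 bases before the start, 5′ to 3′ on the gene's strand, with every match on either strand in capitals. Ccnb2 (cyclin B2) lies at chr9:70421555-70421804 on the minus strand, Top2a at chr11:99024190-99024439 on the minus strand, Cdk1 at chr10:69352913-69353162 on the minus strand, Mki67 at chr7:135716380-135716629 on the minus strand, Mcm6 at chr1:128359706-128359955 on the minus strand and Mcm5 at chr8:75109259-75109508 on the plus strand.
Ccnb2: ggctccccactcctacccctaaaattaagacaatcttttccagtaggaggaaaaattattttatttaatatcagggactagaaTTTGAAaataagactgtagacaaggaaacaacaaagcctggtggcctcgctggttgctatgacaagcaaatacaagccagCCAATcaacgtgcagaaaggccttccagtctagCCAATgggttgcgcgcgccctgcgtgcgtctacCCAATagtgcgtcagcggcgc
Top2a: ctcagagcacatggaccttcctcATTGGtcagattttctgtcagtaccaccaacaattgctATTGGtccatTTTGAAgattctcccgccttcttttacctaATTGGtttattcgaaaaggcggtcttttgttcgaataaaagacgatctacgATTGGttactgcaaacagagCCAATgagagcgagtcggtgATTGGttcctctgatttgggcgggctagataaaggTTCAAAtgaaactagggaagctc
Cdk1: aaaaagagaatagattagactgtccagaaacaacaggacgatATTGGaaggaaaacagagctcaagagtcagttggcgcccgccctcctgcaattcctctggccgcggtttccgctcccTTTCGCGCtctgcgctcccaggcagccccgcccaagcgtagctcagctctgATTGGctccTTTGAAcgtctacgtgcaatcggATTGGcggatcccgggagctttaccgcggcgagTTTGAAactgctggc
Mki67: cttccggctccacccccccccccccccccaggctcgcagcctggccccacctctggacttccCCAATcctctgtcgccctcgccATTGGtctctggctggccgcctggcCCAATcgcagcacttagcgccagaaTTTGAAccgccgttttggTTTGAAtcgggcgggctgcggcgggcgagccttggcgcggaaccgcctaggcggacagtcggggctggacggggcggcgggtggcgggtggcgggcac
Mcm6: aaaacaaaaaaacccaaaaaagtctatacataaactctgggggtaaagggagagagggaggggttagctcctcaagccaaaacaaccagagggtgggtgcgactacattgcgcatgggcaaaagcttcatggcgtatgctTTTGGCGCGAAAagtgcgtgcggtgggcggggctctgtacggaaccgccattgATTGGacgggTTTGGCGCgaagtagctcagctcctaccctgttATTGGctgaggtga
Mcm5: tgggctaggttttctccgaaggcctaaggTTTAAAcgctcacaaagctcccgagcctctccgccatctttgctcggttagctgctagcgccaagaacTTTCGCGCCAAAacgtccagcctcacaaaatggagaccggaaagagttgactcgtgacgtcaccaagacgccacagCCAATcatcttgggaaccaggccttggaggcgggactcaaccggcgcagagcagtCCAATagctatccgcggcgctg
The counts that follow are for the printed 250 bases only, whereas the shares above are for the full windows of 300. Ccnb2 held 1 TTTGAA and 3 CCAAT matches, Top2a 2 and 6, and Mki67 2 and 3. Cdk1 held 2 TTTGAA matches, 3 CCAAT matches and 1 E2F-type word. Mcm6 and Mcm5 held no TTTGAA. Mcm6 had 3 E2F-type words, of which a pair overlap on opposite strands, and 2 CCAAT matches. Mcm5 had 2 overlapping E2F-type words, 2 CCAAT matches and 1 TTTAAA.

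Levels are given as CPM, the counts of a gene scaled to a fixed library total and adjusted by TMM, a method that sets libraries on a common scale, taken separately for sorted cells and whole fat. Sorted Treg cells held the members at far higher levels than whole fat. Summed over the 11 S phase genes, spleen Treg libraries reached 1209, 1046 and 1099 CPM, those of SAT 1583, 1145 and 1430, and those of BAT 1168 and 1708. Summed over the 24 G2/M genes, spleen gave 447, 346 and 370 CPM, SAT 891, 622 and 539, and BAT 728 and 1174. The G2/M sums of fat and spleen Treg libraries did not overlap, whereas the S phase sums did. The share of the G2/M genes in the summed member signal was 24.9 to 27.0% in spleen, 27.4 to 36.0% in SAT and 38.4 and 40.7% in BAT.

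**Figure D1:**
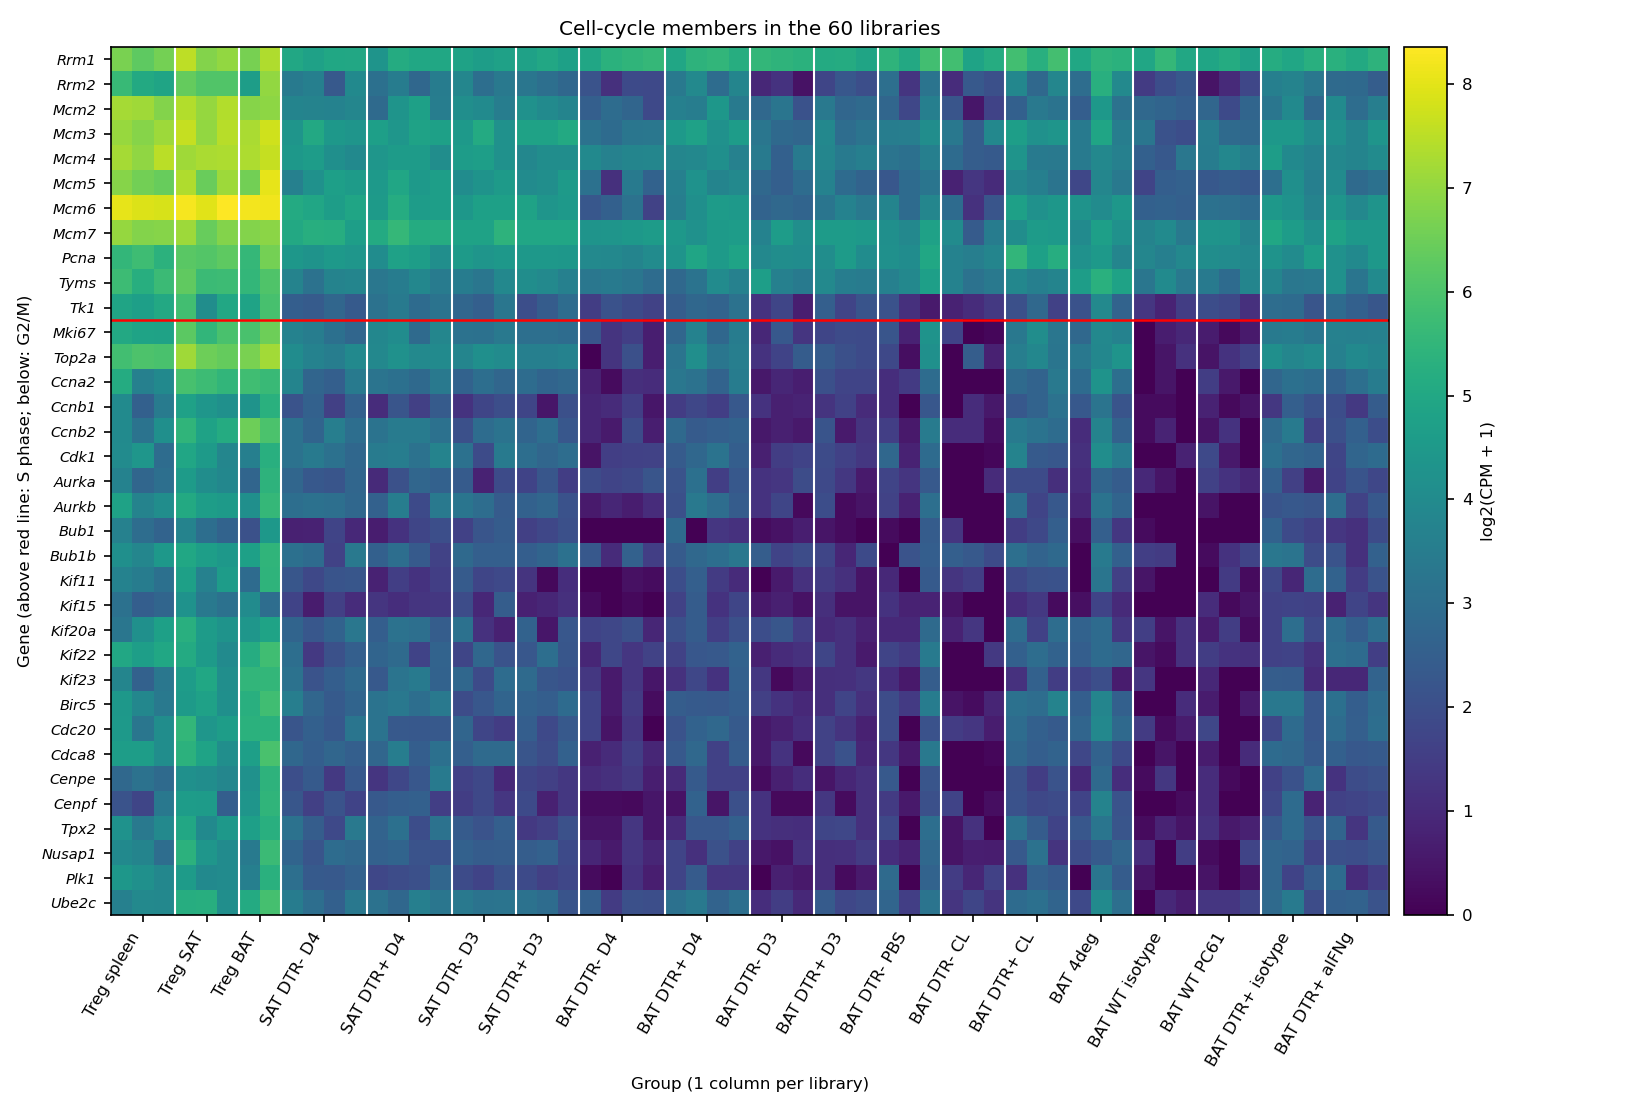
Level of each of the 35 members (rows, S phase above G2/M) in each of the 60 libraries (columns, by group), as log2 of CPM plus 1. The 8 sorted Treg libraries are the most intense block, and among whole BAT groups the DTR+ D4, DTR+ CL, DTR+ isotype, anti-IFNg and 4 degree libraries are fuller than the D3, wild-type, DTR- D4 and DTR- CL libraries.

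In whole fat the G2/M sum separated groups more widely than the S phase sum. It was lowest in BAT of wild-type mice given isotype (8.92 to 11.2 CPM), followed by PC61 (13.8 to 22.5), DTR- CL (12.7 to 21), DTR- D3 (25.6 to 31.0), DTR- D4 (22.2 to 41.8) and DTR+ D3 (30.2 to 49.6), and the ranges of these neighbours mostly overlap. It was 90.1 to 135 CPM in DTR+ D4, 119 to 135 in DTR+ CL, 96.0 to 141 in DTR+ isotype and 98.7 to 119 in the anti-IFNg group. BAT of DTR- mice given PBS spanned 18.7, 56.2 and 166 CPM, and BAT kept at 4 degrees 67.6, 123 and 224 CPM, so that single libraries set both of these groups. In SAT the sum lay between 95.1 and 166 CPM in all 4 groups. In bulk tissue, fewer dividing cells and less RNA per dividing cell cannot be told apart.

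**Figure D2:**
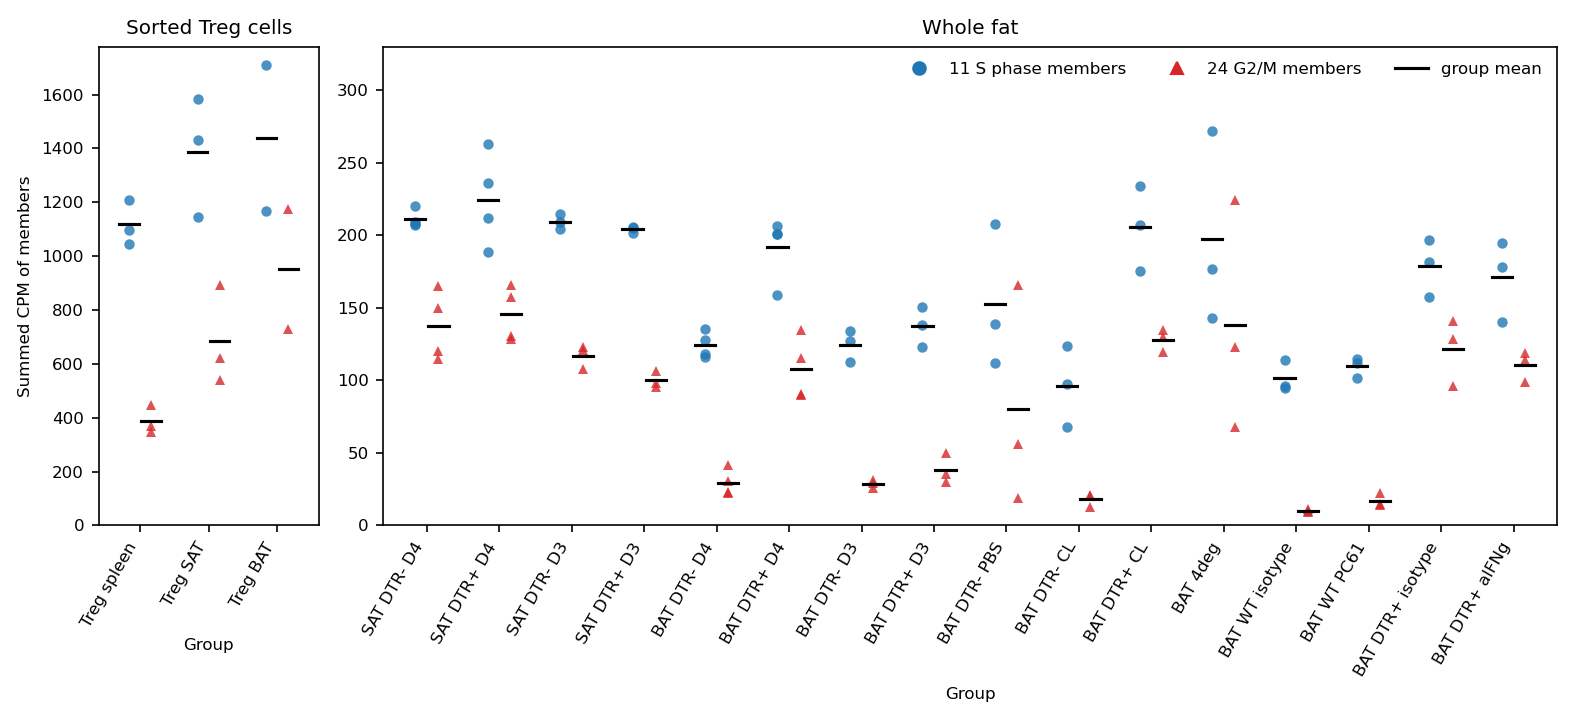
Summed CPM of the 11 S phase genes and of the 24 G2/M genes in each library (points) by group, with the group mean, sorted cells on the left axis and whole fat on the right. DTR+ D4 BAT libraries (90.1 to 135 CPM for G2/M) lie above all DTR- D4 BAT libraries (22.2 to 41.8), and the DTR- PBS and 4 degree groups are the most spread.

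Per kilobase of exon, so that genes can be ranked, Mcm6 was the most abundant member in Treg cells of all 3 tissues, at 52.2 ± 4.2 CPM per kilobase in spleen (SD, n = 3), 62.8 ± 8.5 in SAT (n = 3) and 62.1 ± 1.6 in BAT (n = 2). In spleen it was followed by Mcm4 (41.9 ± 7.4) and Mcm3 (34.2 ± 3.5). Ccnb2 stood at 8.69 ± 3.0 CPM per kilobase in spleen and at 50.1 ± 13 in BAT, next to Mcm6. The centromere motor-binding gene Cenpf and the kinesin Kif15 were at the bottom in each Treg group. In whole BAT of DTR- D4 mice Pcna led with 5.88 ± 0.45 CPM per kilobase (n = 4), then Mcm7 (4.64 ± 0.37). Bub1 had no count. The order depends on the exon length used, which counts every base in any annotated exon of a gene. It was 2400 bases for Pcna and 11012 for Rrm1. In CPM, Rrm1 was the highest member of DTR- D4 BAT, at 29.5, 39.4, 43.3 and 46.6. Pcna was at 14.4, 14.1, 12.7 and 15.3 CPM. Per kilobase, Rrm1 stood at 3.61 ± 0.67.

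Totals ran from 3007241 to 9673342 counts per library. Foxp3 checks the sort, at 352 to 439.6 CPM in the 8 sorted libraries, and can hardly check depletion in whole BAT, where DTR- libraries have at most 7 counts of it. Sorted libraries held Cdh5 at no more than 1.01 CPM, but Ighm at 749 to 1164 and Pecam1 at 123 to 319. A pair of whole-tissue libraries stood apart by summed T and NK cell markers (10 genes). SAT DTR- D4 replicate 3 had 206 CPM, beside 20.6 to 22.9 in the other 3, and BAT DTR- PBS replicate 3 had 168, beside 9.46 and 17.6. Comparisons of their groups are given with and without them. The fit of DTR+ against DTR- under CL also held BAT DTR- PBS replicate 3, and no count without that library is given for it. Counting used no stated strand, so Ube2c (which shares 22.8% of its exon bases with Tnnc2 on the opposite strand), Kif20a (29.3%, Cdc23) and Ccna2 (12.5%, Exosc9) may hold reads of a neighbour, and Ccnb1, Ccnb2, Kif22, Pcna and Tyms have annotated pseudogene copies that could take or lend reads.

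In Treg cells, G2/M genes were higher in fat than in spleen, and S phase genes were not called. Of 35 members, 11 rose and 0 fell in BAT and SAT together against spleen (5 libraries against 3, edgeR's quasi-likelihood test with Benjamini-Hochberg adjustment over 13847 genes, threshold 0.05), where 7.29% of all genes rose and 5.27% fell. All 11 belonged to the 24 G2/M genes, and 0 of the 11 S phase genes passed. The median log2 fold change was 1.13 for G2/M members and 0.43 for S phase members, beside -0.01 over all genes tested. All 24 G2/M genes and 10 of 11 S phase genes had a positive value, beside 49.1% of all genes.

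Ccnb2, which activates Cdk1 at mitotic entry, had the smallest adjusted p. It stood at 15.0, 8.08 and 16.8 CPM in spleen, 43.4, 27.1 and 34.1 in SAT and 91.0 and 62.3 in BAT. The 3 tissues did not overlap, with BAT highest. Its log2 fold change in fat was 1.96 ± 0.28 (SE, adjusted p = 0.00059). Mki67, the gene of the Ki-67 protein found in cycling cells, was at 31.7, 27.7 and 27.0 CPM in spleen, 75.4, 43.7 and 60.7 in SAT and 61.0 and 90.4 in BAT. Every fat library lay above every spleen library (1.22 ± 0.21, adjusted p = 0.0025). Kif23, a motor of the central spindle that is needed for cytokinesis, was at 12.8, 5.03 and 8.95 CPM in spleen, 23.4, 30.2 and 16.5 in SAT and 44.3 and 45.4 in BAT. Here too fat and spleen were apart (1.85 ± 0.32, adjusted p = 0.0025).

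Cenpe, the motor that links chromosomes to spindle fibres, rose by 1.66 ± 0.34 (adjusted p = 0.0067), Ube2c, the enzyme that passes ubiquitin to mitotic cyclins, by 1.48 ± 0.31 (0.0080) and Top2a by 0.91 ± 0.19 (0.0090). Ccna2 (cyclin A2), Ccnb1 (cyclin B1), Birc5 (survivin), Cdc20 and Cenpf were the other called members, with log2 fold changes from 1.11 to 2.21. Cenpf had the largest value, 2.21 ± 0.59 (adjusted p = 0.028), yet its ranges overlapped, since SAT replicate 3 (4.63 CPM) lay below spleen replicate 3 (9.14 CPM).

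Among S phase genes the largest log2 fold change in Treg cells was that of Rrm2, the regulatory subunit of ribonucleotide reductase, at 1.02 ± 0.42 (adjusted p = 0.14). Its BAT libraries read 24.4 and 128 CPM, below and above all spleen libraries (28.5 to 48.2). Pcna gave 0.65 ± 0.22 (adjusted p = 0.070) and Mcm5 0.65 ± 0.31 (0.20). Of the MCM subunits, the helicase that opens DNA, Mcm6 was at 0.26 ± 0.11, Mcm4 at 0.12 ± 0.13, Mcm2 at 0.03 ± 0.13 and Mcm7, the lowest, at -0.06 ± 0.15, and none was called.

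**Figure D3:**
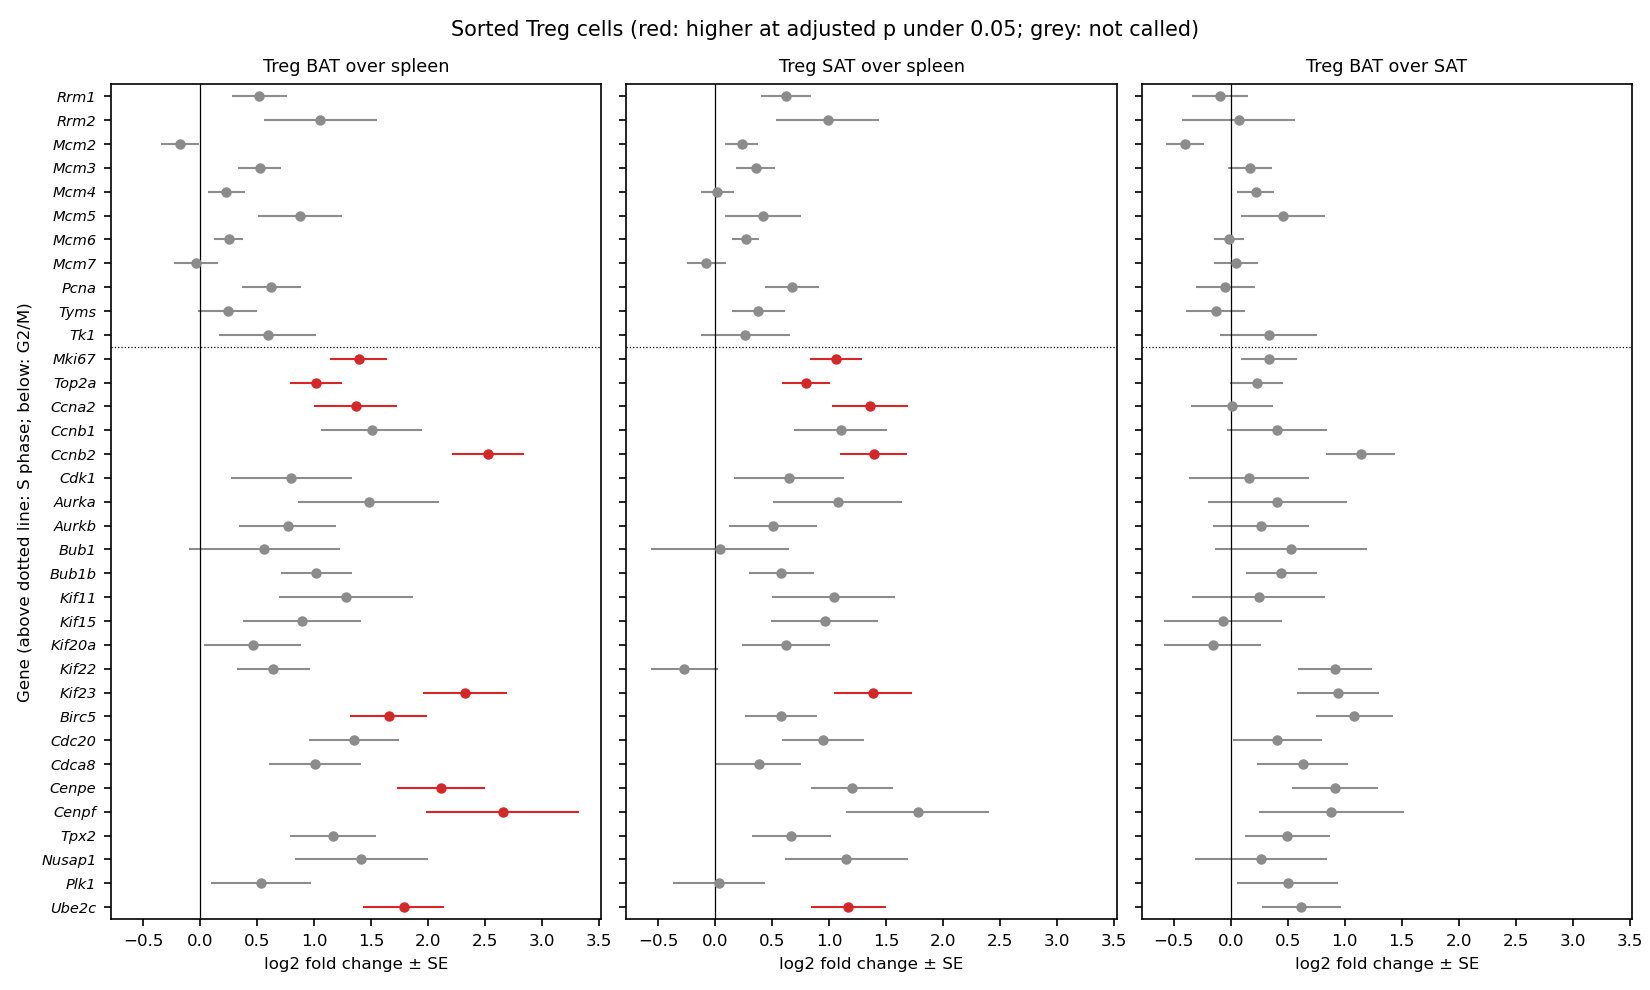
Log2 fold change of each member in Treg cells of BAT and of SAT over spleen (points, with bars of 1 SE), S phase and G2/M members apart. The right panel shows BAT over SAT. Red points passed the test and all of them are G2/M members, and Ccnb2 (2.53 in BAT, 1.39 in SAT) is among the farthest from 0.

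Against spleen, Treg cells of BAT alone had 9 higher members (beside 5.57% of genes), led by Ccnb2 (2.53 ± 0.32, adjusted p = 0.00035), and those of SAT alone had 6 (beside 5.56%), namely Mki67, Top2a, Ccna2, Ccnb2, Kif23 and Ube2c. Both comparisons share the spleen libraries. Between BAT and SAT Treg cells, 0 of 35 members and 0% of genes passed with edgeR, 0 members with DESeq2, and 6 members had an unadjusted p under 0.05 (beside 8.89% of genes), of which 5 were higher in BAT. Ccnb2 was nearest to the threshold (1.14 ± 0.31, adjusted p = 0.31). The counts moved with single libraries. For fat against spleen they were 19 without Treg BAT replicate 1, when the S phase genes Rrm1, Rrm2, Mcm3, Mcm5 and Pcna were called too, 7 without BAT replicate 2, 6 without spleen replicate 2 and 7 without spleen replicate 3. For BAT against spleen they were 16 without BAT replicate 1, 3 without BAT replicate 2 and 5 without spleen replicate 2. For SAT against spleen they were 2 without SAT replicate 1, 2 without SAT replicate 2, 1 without spleen replicate 2 and 1 without spleen replicate 3.

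Other genes of the pathway were counted in fixed lists. Of 39 other mitosis genes, 14 rose and 1 fell in fat Treg cells, among them Pttg1 (securin, 2.38 ± 0.22), Racgap1, the partner of Kif23 (1.16 ± 0.16), and Cdc25b, the phosphatase that activates Cdk1 (1.27 ± 0.19), while the condensin subunit Smc4 fell by 0.65 ± 0.09. Of 31 other replication genes, 3 rose, namely Slbp, Pola1 and Cdc6. Among 17 tested G1 cyclins, their kinases and the E2F/Rb family, Rbl2 rose (0.64 ± 0.14) and Ccnd3 (cyclin D3) fell by 0.54 ± 0.11. Of 11 tested CDK inhibitors and p53 targets, 2 rose. They were Cdkn1a, which encodes the CDK inhibitor p21 (6.21 ± 0.55), and Btg2, an antiproliferative gene (1.30 ± 0.16). Monocyte and macrophage markers moved with these groups in part. Ccr2, which Treg cells also express, was at 244 to 538 CPM in fat and 23.5 to 39.3 in spleen, while C1qa was at no more than 0.604 in fat and at 4.13 to 16.1 in spleen. Their part in the result was not tested.

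In whole BAT of the D4 groups, 6 S phase and 10 G2/M genes were higher in DTR+ mice, whose Treg cells are open to the toxin, than in DTR- mice. Of 26 members that passed the count filter, 16 rose and 0 fell in DTR+ against DTR- (4 libraries each, 11695 genes, beside 8.73% of genes that rose and 7.36% that fell). The filter keeps a gene that is expressed in either group, so members absent from DTR- BAT entered only through DTR+, and the count over tested members is a description. The 9 untested members were Bub1, Cenpe, Cenpf, Kif11, Kif15, Kif23, Nusap1, Plk1 and Tpx2.

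Ccna2, the cyclin of S phase and G2, was at 0.687, 0.176, 1.18 and 1.07 CPM in DTR- and at 8.95, 7.92, 5.33 and 10.4 in DTR+ BAT, apart in every library (3.39 ± 0.47, adjusted p = 0.00016). Top2a, which untangles replicated DNA, was at 0, 1.41, 3.09 and 0.645 CPM in DTR- and at 8.30, 16.3, 8.76 and 11 in DTR+ (3.08 ± 0.63, adjusted p = 0.0061). Aurkb, the kinase of the chromosomal passenger complex, was at 0.515, 0.879, 0.589 and 1.07 CPM in DTR- and at 3.09, 9.30, 6.85 and 4.44 in DTR+ (3.01 ± 0.50, adjusted p = 0.00068). Its partners in that complex, Birc5 (1.86 ± 0.53) and Cdca8 (borealin, 1.89 ± 0.50), also rose. Ccnb2 (2.06 ± 0.51), Cdk1 (1.86 ± 0.48), Cdc20 (2.20 ± 0.62), Mki67 (2.19 ± 0.45, adjusted p = 0.0033) and Ube2c (1.27 ± 0.36) were the other G2/M calls, and Ccnb1 (1.21 ± 0.54, adjusted p = 0.15) and Aurka (0.65 ± 0.44, 0.38) did not pass. Tnnc2, which overlaps Ube2c, was at 0, 0, 14.3 and 9.67 CPM in DTR- and 21.8, 0.152, 1.71 and 0 in DTR+.

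Bub1, the checkpoint kinase, had 0 counts in all 4 DTR- libraries and 51 in DTR+, at 6.18, 0, 1.52 and 1.30 CPM, at least 17.2-fold higher against a floor of 3 counts over the group. A single DTR+ library was at 0 and replicate 1 held most of the signal.

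The S phase genes divided among themselves in the same comparison. Mcm3 was at 7.90, 6.50, 8.68 and 9.02 CPM in DTR- BAT and at 22.1, 26.4, 17.5 and 23.5 in DTR+ (1.53 ± 0.21, adjusted p = 0.00014). Mcm6 was at 3.78, 4.92, 7.80 and 2.15 CPM in DTR- and at 10.9, 17.1, 23.0 and 21.7 in DTR+ (1.98 ± 0.34, adjusted p = 0.0012). Neither gene's groups overlapped. Mcm2 (1.45 ± 0.32) rose too, while Mcm5 (1.29 ± 0.43, adjusted p = 0.061) lay outside the threshold and Mcm4 (0.14 ± 0.20, 0.72) and Mcm7 (0.09 ± 0.17, 0.80), parts of the same ring, had values near 0. Per kilobase, DTR- BAT held Mcm4 at 3.65 ± 0.36 CPM and Mcm7 at 4.64 ± 0.37, above Mcm3 (2.14 ± 0.30), Mcm5 (1.48 ± 0.90), Mcm6 (0.999 ± 0.51) and Mcm2 (0.707 ± 0.25). In DTR+ BAT the 6 subunits lay between 1.87 ± 0.69 (Mcm2) and 5.96 ± 0.98 (Mcm3). In Treg cells of the spleen the order was another, with Mcm6 first and Mcm2 (19.1 ± 2.9) last. The low place of Mcm2 depends on the exon length used, 6956 bases for Mcm2 and 3589 (Mcm4) to 4666 (Mcm6) for the others. In CPM, spleen Treg libraries held Mcm2 at 148, 141 and 109, beside Mcm5 at 113, 94.3 and 83.1. DTR- BAT held Mcm2 at 4.81, 6.68, 5.59 and 2.58 CPM, which overlaps Mcm6. Rrm2 rose by 2.16 ± 0.36 (adjusted p = 0.00076), while its catalytic partner Rrm1 gave -0.02 ± 0.17 (0.95). Pcna (0.86 ± 0.19) and Tk1 (1.27 ± 0.37) rose, and Tyms gave 0.32 ± 0.29.

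**Figure D4:**
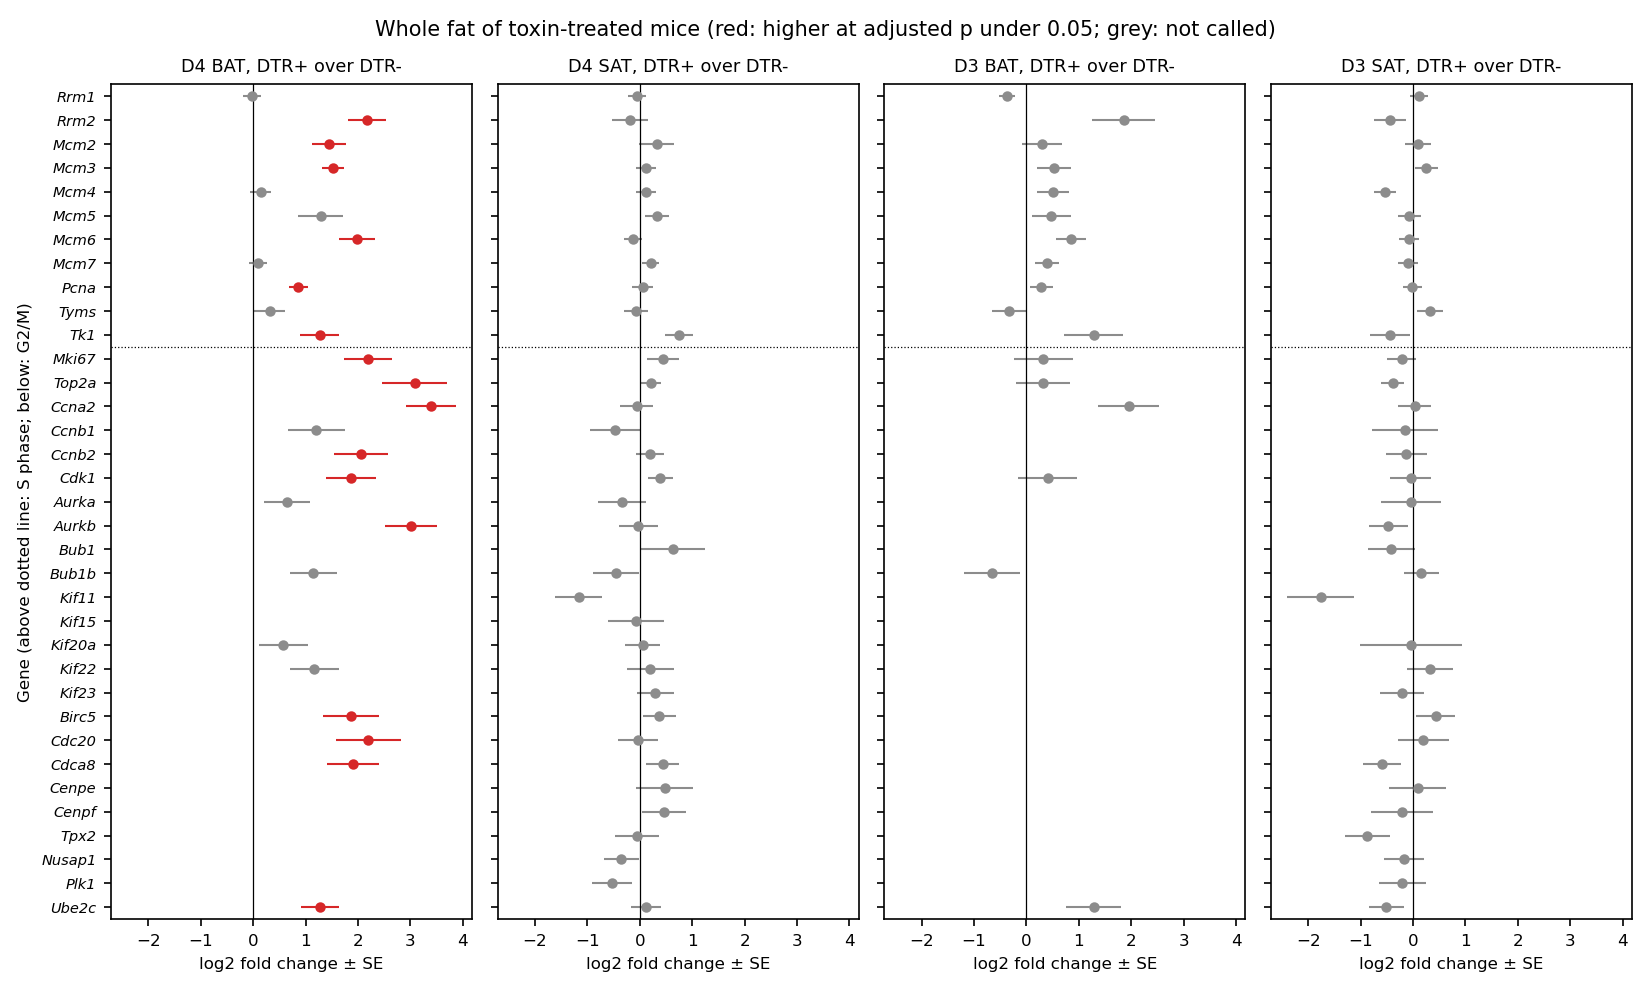
Log2 fold change of DTR+ over DTR- for the members tested, with bars of 1 SE, in BAT and SAT of the D4 and D3 groups on a common axis. Red points passed the test: 16 members in D4 BAT, and 0 in D4 SAT, D3 BAT and D3 SAT.

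Markers of several immune cell types, but not of B cells, moved with these genes. Summed T and NK cell markers were at 5.67 to 7.21 CPM in DTR- D4 BAT and 22.0 to 63.6 in DTR+ (4 of 4 tested markers rose), macrophage and monocyte markers at 182 to 408 and 624 to 1345 (9 of 12 rose), and neutrophil markers at 2.35 to 6.36 and 11.6 to 21.8 (3 of 3 tested rose). B cell markers went the other way, at 16.3 to 27.7 CPM in DTR- and 8.79 to 15.1 in DTR+. Endothelial markers were at 296 to 326 and 265 to 301 CPM. Ucp1, the uncoupling protein of brown fat, was at 4767 to 6657 CPM in DTR- and 2447 to 2877 in DTR+. The part of these cells in the member result was not tested. Of other replication genes, 4 of 22 tested rose, among them Uhrf1, Cdt1 and Pold1, and of other mitosis genes 4 of 17 (Prc1 at 3.09 ± 0.50, Spc24, Racgap1 and Cdca3). E2f2 fell by 1.61 ± 0.42, and Btg2 (1.72 ± 0.32), Cdkn1a (0.51 ± 0.15) and Trp53inp1 (0.76 ± 0.23) rose of 12 tested CDK inhibitors and p53 targets.

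In SAT of the D4 groups, 0 of 35 members passed with edgeR (beside 0.314% of genes in either direction), 0 with DESeq2, and 2 had an unadjusted p under 0.05 (beside 7.42% of genes), Tk1 (0.75 ± 0.27) and Kif11 (-1.17 ± 0.45). Mki67 was at 12.1, 10.6, 7.50 and 5.83 CPM in DTR- and 13.6, 15.6, 6.37 and 13.1 in DTR+ SAT, and Ccna2 at 12.6, 5.59, 4.75 and 9.76 against 8.26, 7.51, 6.18 and 9.32. Both pairs of groups overlapped. Without replicate 3 of both genotypes the count was also 0. The difference between the effects in BAT and in SAT was itself tested. It passed for 8 of 35 members, all more positive in BAT (beside 3.06% of genes), with 24 at an unadjusted p under 0.05 (beside 18.5%). The count filter also spanned the SAT groups. The 9 members left untested in D4 BAT, Kif11 and Kif15 among them, entered only through SAT, so these counts are a description. With library-size scaling 15 passed, and without SAT DTR- D4 replicate 3 it was 9. The 8 were Ccna2 (3.43 ± 0.57, adjusted p = 0.0026), the spindle motors Kif11 (5.36 ± 0.95) and Kif15 (4.72 ± 1.01), Top2a (2.83 ± 0.60), Aurkb (3.01 ± 0.63), Rrm2 (2.33 ± 0.52), Mcm6 (2.06 ± 0.39) and Mcm3 (1.38 ± 0.27). The values of Kif11 and Kif15 rest on DTR- BAT libraries that each held 0 to 0.294 CPM.

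In the D3 groups (3 libraries each), 0 of 17 tested members passed in BAT with edgeR (beside 3.52% of genes) and 0 with DESeq2, and 6 had an unadjusted p under 0.05 (beside 17.9%). Ccna2 came nearest (adjusted p = 0.0495 with library-size scaling), at 0.448, 0.848 and 0.634 CPM in DTR- and 3.14, 2.27 and 2.28 in DTR+, apart in every library (1.95 ± 0.59, adjusted p = 0.087). Rrm2 gave 1.86 ± 0.60 (adjusted p = 0.11), Mcm6 0.85 ± 0.29 (0.13) and Mki67 0.32 ± 0.56 (0.82). In D3 SAT 0 of 34 tested members passed, as did 0% of all genes, with 2 members at an unadjusted p under 0.05 (beside 4.99% of genes). The test of D4 against D3 effects in BAT gave 0 of 31 members and 0% of genes, with 11 at an unadjusted p under 0.05 (beside 5.74%), so the D4 and D3 effects were not shown to differ. The test of BAT against SAT effects in D3 also gave 0 of 34 (beside 0.0675% of genes), with 11 at an unadjusted p under 0.05 (beside 10.9%).

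Between depots of DTR- mice, BAT held less of nearly every member than SAT. In the D4 controls 27 of 33 tested members were lower in BAT and 1 was higher (beside 25.0% of genes lower and 25.9% higher), and in the D3 controls 25 were lower and 1 was higher (beside 22.9% and 23.0%). Members nearly absent from DTR- BAT passed the count filter only through SAT, so these counts are a description. The lower members of both sets shared 22 genes, 81.5% of the D4 set and 88% of the D3 set, and over all genes the lower sets shared 75.3% and 81.6%. Ccna2 was lower by a log2 of -3.33 ± 0.51 in D4 and -3.12 ± 0.50 in D3, Mcm6 by -2.58 ± 0.29 and -2.06 ± 0.23, and Ccnb2 by -2.61 ± 0.49 and -3.39 ± 0.58. The 1 higher member was Rrm1 in both (0.44 ± 0.16 and 0.73 ± 0.16). Scaling by library size alone shifted the median of all genes by -0.48 and -0.47. Rrm1 then gave -0.0462 in D4 and 0.25 in D3, neither of them called, and 32 and 29 members were lower. Without SAT DTR- D4 replicate 3, which stood apart, 28 members were lower and 1 was higher in D4. The other replication and mitosis lists held calls in both directions. In D4 and D3, Gmnn (2.65 and 2.65) and Pttg1 (1.48 and 1.33) were higher in BAT. Cks1b (-2.16 and -2.70) and Racgap1 (-2.03 and -2.26) were lower. Macrophage and monocyte markers were lower in BAT for 12 of 12 genes in both sets.

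CL was given to DTR- mice, and 9 of 33 tested members were lower in their BAT than with PBS while 0 were higher (3 libraries each, beside 11.8% of genes lower and 16.3% higher). The count filter also spanned the DTR+ CL group. Members at or near 0 in DTR- CL entered only through the groups where they were high, so these counts are a description. Mcm5 was at 0.726, 1.5 and 1.03 CPM with CL and at 3.83, 6.55 and 8.39 with PBS (-2.39 ± 0.53, adjusted p = 0.0047). The groups were apart, and among all members Mcm5 alone was called when only these 2 groups were fitted and 14 members passed the filter. Birc5 was at 0.363, 0.215 and 0.803 CPM with CL and at 2.88, 1.70 and 10.3 with PBS (-3.16 ± 0.79, adjusted p = 0.0093). Ccna2, Aurkb, Kif23 and Cenpe had 0 counts in the CL group, and PBS was at least 17.0, 18.0, 11.1 and 13.7-fold higher, and at least 7.66, 7.63, 4.40 and 10.8-fold higher without PBS replicate 3. Ccna2, Aurkb and Cenpe were among the called members, with Cdk1, Cdca8, Mcm6 (-1.50 ± 0.49) and Mki67 (-3.76 ± 1.29, adjusted p = 0.0499), and Kif23 was not tested.

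This comparison leaned on PBS replicate 3, which also had the high T and NK cell markers. Mki67 was at 3.64, 0.728 and 18.8 CPM in the PBS group and Top2a at 2.49, 0.243 and 17.2, so replicate 3 held most of either signal. Without it 5 members were lower (Mcm5, Ccna2, Cdk1, Aurkb and Cenpe). T and NK cell markers were at 3.27 to 4.08 CPM with CL, and 7 of 9 tested ones were lower than with PBS. Their part in the result was not tested. Among other lists, Cdkn1a rose by 3.11 ± 0.22 with CL, the cyclin D kinase gene Cdk4 fell by 0.99 ± 0.20 and the replication inhibitor Gmnn (geminin) by 2.03 ± 0.28.

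With CL given to both genotypes, DTR+ BAT held more of the members than DTR- BAT. Of 33 tested members 10 rose and 0 fell (beside 4.51% of genes higher and 3.21% lower). For 31 of all 35 members, the untested Kif23 among them, every DTR+ library lay above every DTR- library (beside 16.6% of the genes tested). As in the D4 groups, members at or near 0 in DTR- CL entered only through the groups where they were high, so these counts are a description. The DTR- CL libraries are those of the comparison with PBS. Mcm5 was at 13.2, 11.1 and 8.25 CPM in DTR+ (3.26 ± 0.54, adjusted p = 0.0044). Pcna was at 44.1, 26.1 and 35.9 CPM in DTR+ and at 12.0, 10.9 and 12.8 in DTR- (1.56 ± 0.32, adjusted p = 0.011). Mcm6 was at 25.7, 17.8 and 20.6 CPM in DTR+ and at 6.54, 1.29 and 3.55 in DTR- (2.55 ± 0.49, adjusted p = 0.0080).

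Birc5 (4.06 ± 0.79) and Ccnb2 (3.48 ± 0.95) also rose, as did Ccna2, Cdk1, Aurkb, Cdca8 and Cenpe, which were at or near 0 in DTR- CL. The group totals of Ccna2, Aurkb, Kif23 and Cenpe were at least 37.8, 24.0, 14.8 and 15.3-fold higher in DTR+. Mki67 was at 9.09, 16.2 and 8.60 CPM in DTR+ and 2.18, 0 and 0.115 in DTR-, apart but with an adjusted p of 0.065 (4.35 ± 1.29). Without DTR+ CL replicate 1 there were 6 calls, and with DESeq2 there were 17. T and NK cell markers were at 70.9 to 81.9 CPM in DTR+ and 3.27 to 4.08 in DTR-, and macrophage and monocyte markers at 1091 to 1244 and 220 to 243, of which 10 of 12 rose. Their part in the result was not tested.

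**Figure D5:**
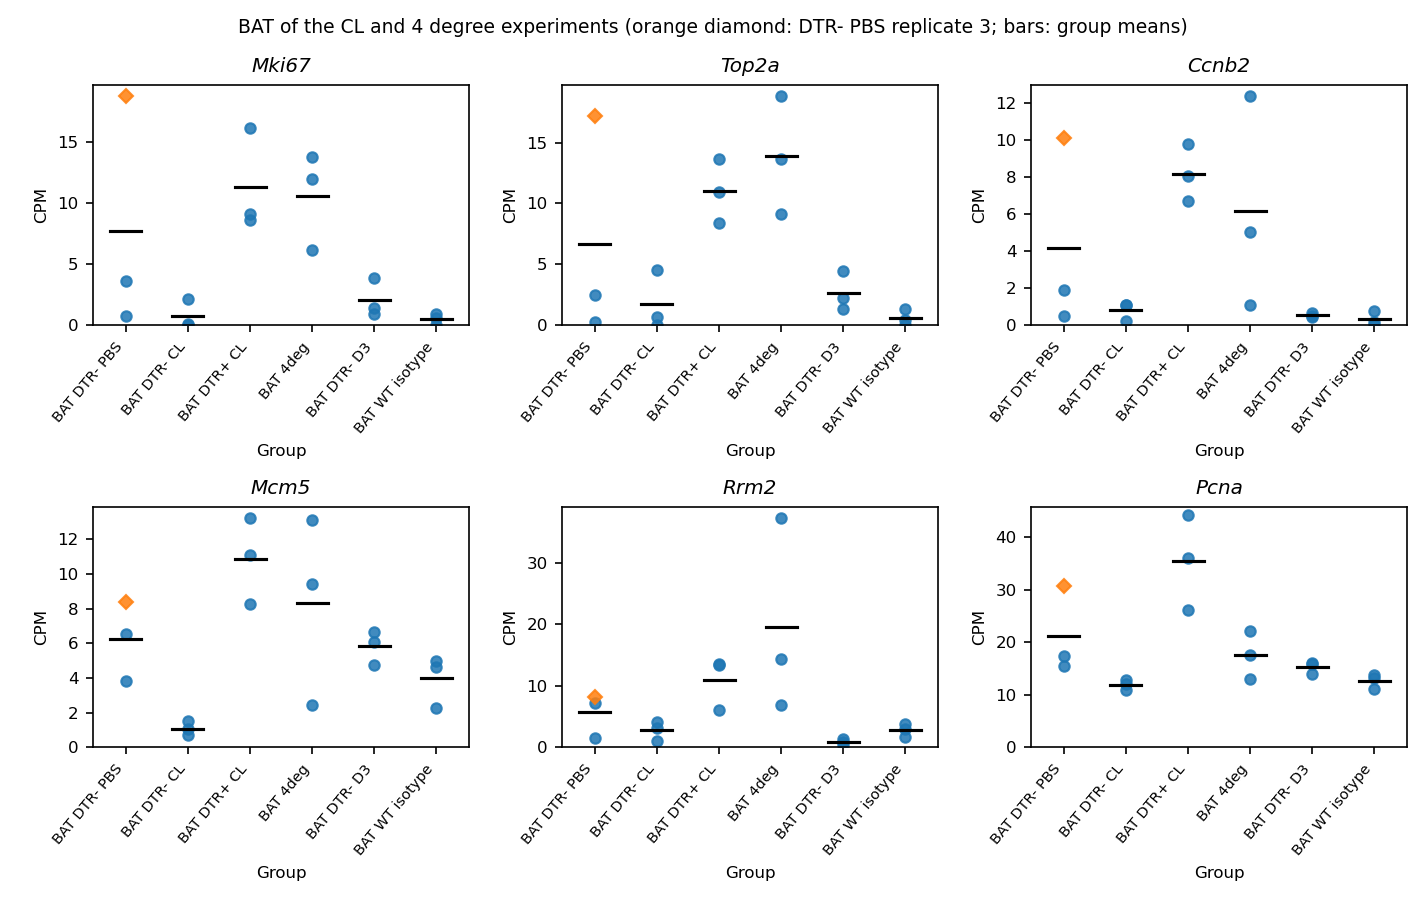
CPM of Mki67, Top2a, Ccnb2, Mcm5, Rrm2 and Pcna in each BAT library (points, bars for group means) of the CL and 4 degree groups and of DTR- D3 and wild-type isotype mice; an orange diamond marks DTR- PBS replicate 3. For Mcm5 the DTR- CL libraries (0.726 to 1.5 CPM) lie below all others shown and the DTR+ CL libraries are at 8.25 to 13.2.

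The D4 and CL comparisons of DTR+ with DTR- BAT have no library in common, and 8 genes were called higher in both, which is 50% of the 16 D4 genes and 80% of the 10 CL genes. Of all genes called higher, 327 were shared, 32.0% of 1021 and 60.2% of 543. The shared members were Mcm6, Pcna, Ccna2, Ccnb2, Cdk1, Aurkb, Birc5 and Cdca8. With the 11 genes of fat Treg cells, the D4 set shared 7 (Mki67, Top2a, Ccna2, Ccnb2, Birc5, Cdc20 and Ube2c), 63.6% of the Treg set and 43.8% of the D4 set, and the CL set shared 4 (Ccna2, Ccnb2, Birc5 and Cenpe), 36.4% and 40%. Over all genes the Treg set shared 16% of its 1009 with the D4 set, 15.8% of the latter, and 8.52% with the CL set, 15.8% of that set. Ccna2, Ccnb2 and Birc5 were called in all 3.

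BAT kept at 4 degrees was compared with DTR- BAT given PBS, and 0 of 34 tested members passed with edgeR (beside 8.66% of genes in either direction). DESeq2 called 2 (Rrm2 and Tk1), and 5 had an unadjusted p under 0.05 (beside 23.7% of genes), all higher in the cold. Tk1 was at 3.27, 14.4 and 5.34 CPM in the cold and 3.26, 1.21 and 0.533 with PBS, apart by a narrow margin (2.18 ± 0.77, adjusted p = 0.11). Rrm2 was at 6.95, 37.2 and 14.3 CPM in the cold and 7.29, 1.46 and 8.26 with PBS, where the groups overlapped (1.72 ± 0.69, adjusted p = 0.16). Cdc20 was at 5.59, 14.0 and 6.18 CPM against 2.88, 0 and 3.33 (1.96 ± 0.80, 0.16). Replicate 2 was the highest of the cold libraries in all 3 genes.

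The call depended on the control. Without PBS replicate 3, 3 members (Tyms, Top2a and Ccna2) were called. Against DTR- D3 BAT 14 of 28 tested members were higher (beside 11.1% of genes), and against wild-type BAT given isotype 16 of 25 (beside 11.9%). Members scarce in these controls passed the count filter only through the cold libraries, so both counts are a description. The control groups differ in treatment and genotype as given above, and the PBS group is also the control of the CL comparison. In the cold group T and NK cell markers were at 7.45 to 14.4 CPM and macrophage and monocyte markers at 245 to 316, below the highest PBS library in both (168 and 890), while 3 of 5 endothelial markers rose. Cdkn1a rose in the cold by 1.22 and E2f2 by 2.73.

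PC61 and anti-IFNg gave no called member. With PC61, 0 of 10 tested members passed with edgeR (beside 0.651% of genes) and 0 with DESeq2, and 1 had an unadjusted p under 0.05 (beside 10.8%), Mcm4 (1.00 ± 0.36). Mcm4 was at 10.3, 13.7 and 10.6 CPM with PC61 and 4.95, 3.88 and 8.87 with isotype, which did not overlap. The filter removed 25 members, Mki67 and Top2a among them, as wild-type BAT held at most 2.08 CPM of either in any library, and gave them no test. With anti-IFNg in DTR+ mice, 0 of 35 passed with edgeR (beside 0.541% of genes) and 0 with DESeq2, and 3 had an unadjusted p under 0.05 (beside 8.17%). Rrm2 had the smallest p, at 6.36, 6.20 and 4.52 CPM with the antibody and 11.3, 12.3 and 8.98 with isotype (-0.96 ± 0.31, adjusted p = 0.33). Mki67 was at 11.8, 11.3 and 11.6 CPM against 9.73, 10.3 and 8.73 (0.24 ± 0.26, 0.87). T and NK cell markers were at 12.3 to 20.9 CPM with the antibody and 25.4 to 43.5 with isotype.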

How the data were processed

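RNA of sorted Treg cells and of whole fat (2 ng per library) was primed with oligo(dT) and amplified by Smart-seq2, which does not mark strand, per the labels' protocols. The authors deposited raw read counts per gene, made with STAR 2.7.3a and featureCounts on mm10, per the submitters' processing notes. For the annotation release, strand setting and reads with several matches, the record is "not given in the sources used here". Of 55011 listed genes, 44386 had a count.

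All 60 libraries were used, grouped by their labels. Each of 18 comparisons used the genes that filterByExpr kept and TMM factors, and was tested across all genes with the robust quasi-likelihood F test of edgeR 4.0.16 (limma 3.58.1, R 4.3.3), with Benjamini-Hochberg adjustment and a threshold of 0.05. Treg groups shared 1 fit, as did the groups given DT with CL or PBS, and differences between effects used all 4 groups. Dividing a log2 fold change by the root of its F gave the SE. Where a group had no count, folds used 3 counts over that group, a floor for counting error only.

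The 35 members, the pathway and marker lists and the rule for naming genes were chosen with earlier results of these data known. By that rule the text gives Mki67, Top2a, Ccnb2, Mcm5, Rrm2 and Pcna, called members by adjusted p, the extremes, and up to 4 called genes of each other list. Promoters are RefSeq windows and gene models are GENCODE M21. Scaling, fit and test, without the count filter, were run on simulated data, with 200 genes altered for each comparison. Every other gene had the same mean share in all groups, so neither the filter nor a shift of many genes was simulated. Over the 18 comparisons the test recovered 13 to 60% of genes changed by a log2 of 1 and 60 to 88% at a log2 of 2, with 2.41 to 11.3% of calls false. Counting noise alone did not account for the spread of any of 67 replicate pairs (chi-square over its degrees of freedom, 7.02 to 37.6). Alternatives were DESeq2 1.42.0, fits without the filter, RLE factors, library-size scaling (chosen after seeing the data), a block for replicate number, other groups in the fit, another control for the 4 degree libraries and leaving out single libraries.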

Additional observations from a re-analysis of the deposited data

Results flagged for a closer look

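Ccnb2 in BAT DTR- D4 replicate 3 was at 2.80 CPM, far from the other 3 libraries of its group (0.527 to 0.859 CPM). The sum of the 11 S phase genes in BAT DTR+ D4 replicate 1 was 159 CPM, far below the other 3 (201 to 207 CPM). They are 2 of 32 groups of values examined for such gaps, and chance marks about 1 group in 20. DTR+ exceeded DTR- in every library in both cases. A further 8 members stood out because the effect of DTR+ over DTR- in the D4 groups differed between BAT and SAT by the test of the difference (edgeR, adjusted p in brackets, BAT minus SAT on the log2 scale). The values were 3.43 for Ccna2 (0.0026), 5.36 for Kif11 (0.0040), 2.06 for Mcm6 (0.0061), 1.38 for Mcm3 (0.0077), 3.01 for Aurkb (0.011), 4.72 for Kif15 (0.012), 2.83 for Top2a (0.012) and 2.33 for Rrm2 (0.016). Kif11 and Kif15 were at 0 to 0.294 CPM in the DTR- D4 BAT libraries and were not tested in D4 BAT alone, so the size of their values is uncertain.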

How the results depend on the processing

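RLE factors moved 1 count of called members (D4 depots, 28 to 30). Library-size scaling, added after the data were seen, gave 15 for the D4 difference between depots, 1 in D3 BAT (Ccna2) and a reversed Rrm1 between D4 depots (-0.0462, not called). No other direction of a named member reversed. Without the low-count filter the counts were 18 for fat against spleen Treg cells (11 in the report), 18 for BAT against spleen (9), 13 for SAT against spleen (6), 1 for Treg BAT against SAT (0, Ccnb2), 14 for the D4 difference between depots (8), 2 for D4 against D3 in BAT (0, Top2a and Bub1), 18 for DTR+ against DTR- under CL (10) and 4 for cold against PBS (0). DESeq2 gave 13 for the D4 difference between depots, 17 for DTR+ against DTR- under CL and 2 in the cold. With only the compared groups fitted, SAT against spleen gave 10 and CL against PBS 1. The cold comparison gave 2 with all BAT groups in 1 fit, 14 against DTR- D3 and 16 against wild-type isotype.

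Leaving out 1 library at a time gave 6 to 19 for fat against spleen Treg cells, 3 to 16 for BAT against spleen, 1 to 5 for SAT against spleen, 11 to 20 for D4 BAT, 8 to 11 for the D4 difference between depots, 25 to 29 for D4 depots, 23 to 25 for D3 depots, 5 to 13 for CL against PBS, 6 to 10 for DTR+ against DTR- under CL and 0 to 3 in the cold. Of single-gene values without 1 library, 1265 kept their side of the threshold, 56 fell outside it and 15 came inside.

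A replicate block was fitted for 17 comparisons, and in none of them did every same-numbered pair correlate above 0.1, the bar used for pairing. In D4 SAT all pairs were positive (0.058 to 0.103, and 7 of 8 libraries correlated best with their own number), as between D4 depots (0.043 to 0.132, 5 of 8). With the replicate block fat against spleen gave 9, BAT against spleen 8, SAT against spleen 4, D4 BAT 16, the D4 difference 9, D4 depots 26, D3 depots 23, CL against PBS 9 and DTR+ against DTR- under CL 10, and 0 stayed 0. No paired analysis was possible for anti-IFNg because its groups share fewer than 2 numbers. Library-size scaling shifted the median of all genes by 0.25 in D4 BAT, 0.20 in D3 BAT, -0.12 in Treg BAT against spleen and 0.11 with PC61. At these depths members under about 1 CPM are counts of few reads, and groups of 2 to 4 libraries leave wide intervals.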
